A study of Rattus norvegicus with 20 samples.

Results

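The comparison concerned cortical neurons that had been labelled as sprouting after a stroke, in a cohort named day 21 and a cohort named day 7. Its members were the sprouting channels of all 20 arrays, chosen by the cell type that the labels give to each dye, out of 40 channels in all. They came from 10 rats aged 2 years, 5 animals in the day 7 cohort and 5 separate animals in the day 21 cohort, and the strain and sex are not given in the sources used here. In all 10 rats a pair of cholera toxin B tracers, CTb-488 and CTb-647, had been placed at the same point of the cortex beside the infarct, where axons sprout, and the interval between the tracers was the 7 or 21 days that names the cohort. About 300 neurons of each cell type were cut out with a laser 7 days after the later tracer, so the tissue was collected after that further week in both cohorts. Total RNA went through 2 rounds of T7 amplification and was hybridised to 2 arrays, once with sprouting neurons in Cy5 (forward) and once in Cy3 (dye swap), against the non-sprouting neurons of the same animal. No uninjured or sham animals were analysed here, and each animal is represented by 1 pool of captured cells, so the data describe 2 points of a recovery and not a return to or a departure from the uninjured state.

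Tracer that travels back along axons labels the cell bodies of neurons that project to the injected site. A cell body that took up only the later tracer is one whose axon reached the site after the first injection, which is how such experiments separate sprouting from established projections. Neurons near an infarct are known to pass through an early growth-permissive period, with inflammation and matrix remodelling around them, and to resume patterned activity later. Immediate early genes are transcribed within minutes of synaptic activity or growth factor signalling and are commonly read as a record of recent activity.

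Levels are given on the log2 scale after background correction and quantile normalization within each dye, averaged over both dyes, so 1 unit is a 2-fold difference. Detection was uneven. On 17 of the 20 arrays the sprouting channel was well above background at 71.1% to 94.8% of its gene spots, against 56.8%, 35.8% and 20.8% on the dye-swap arrays of day 21 replicates 2, 3 and 4. Replicates 4 and 5 of day 21 stood apart from the other 8 animals, with correlations across features of 0.880 to 0.958 against 0.958 to 0.992 among the others. The file headers give 5 scan dates, called scan batches here, and only the third held both days, with day 7 replicates 4 and 5 and day 21 replicate 1. Day and scan date are therefore nearly the same split of the animals and cannot be told apart beyond that batch. Values within it, or without the day 21 animals of scan batch 5, are given beside most differences that they move by over 1.5 times. Of 12 general neuron markers, 12 were well above background on all 10 day 7 arrays and 7 on all 10 day 21 arrays.

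**Figure D1:**
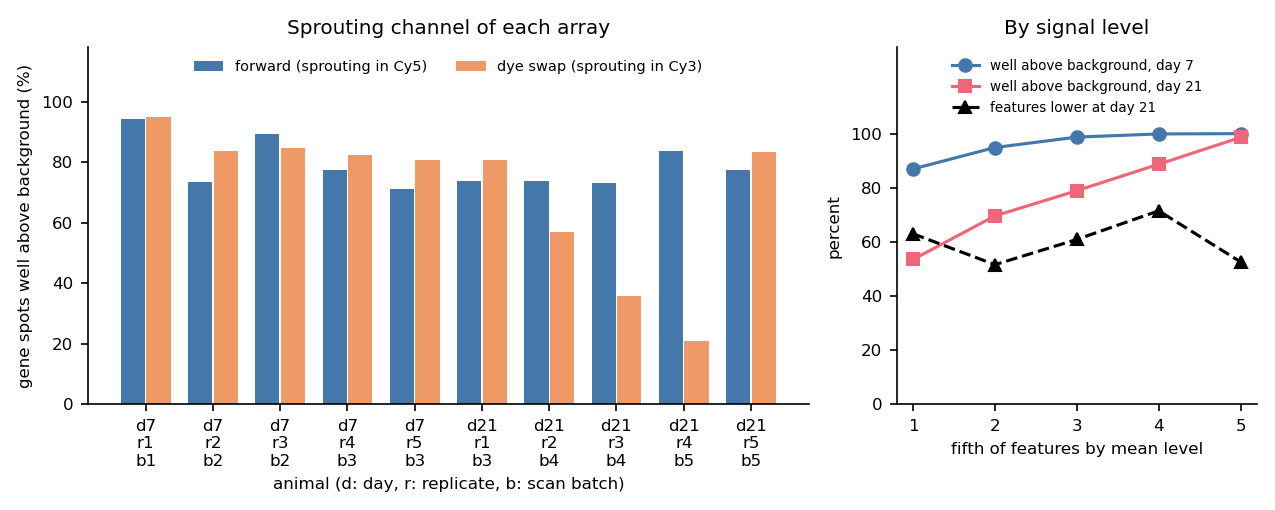
Left, share of gene spots well above background (percent) in the sprouting channel of each array, by animal, replicate and scan batch; the dye-swap arrays of day 21 replicates 3 and 4 are lowest, at 35.8% and 20.8%. Right, for 5 equal groups of features ordered by mean level, the share of arrays on which they were well above background at each day and the share of features lower at day 21, which was highest in the fourth group at 71.5%.

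No single gene passed the test. Of 29000 features (1 probe per named gene, other probes singly; 13058 carried a gene name), limma called 0 at an adjusted p under 0.05, which is 0% of them, and the smallest adjusted p was 0.151. At an unadjusted p under 0.05 there were 4520 features, or 15.6%, of which 1242 (4.28%) were higher and 3278 (11.3%) lower at day 21. In 277 features (0.955%) all 5 day 21 animals lay above all 5 day 7 animals, and in 1030 (3.55%) all lay below. Without scan batch 5 limma again called 0 (0%), with 1848 features (6.37%) higher and 2815 (9.71%) lower at an unadjusted p under 0.05. No gene below is therefore said to have changed, and each is given by its values.

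The lean towards lower values depended on the scaling and on the filter for dim probes. The median difference over all features was -0.07, and 40.1% of all features were higher at day 21. Counts of higher and lower genes below stand beside that 40.1%. Of the features with an unadjusted p under 0.05, the share higher at day 21 was 27.5%. Centring each channel on its median instead moved the median of all features to -0.24 and that share to 11.3%, and centring on the 75th percentile moved them to -0.03 and 51.9%. Without a filter on dim probes they were -0.01 and 36.7%, and with detection required on all 20 arrays -0.02 and 45.1%. A probe could enter by detection on either day, and detection was lower at day 21. The shares of all features used below carry that filter. Some other settings gave calls. Entering the 20 arrays singly with the animal as a random block gave 122 calls, leaving out day 21 replicate 1 gave 411, and 75th percentile centring gave 6. Without day 21 replicate 1 no scan batch holds both days. With the scan batch as a fixed block limma called 0 and 523 features (1.81%) had an unadjusted p under 0.05, and as a random block it called 0 and 2426 (8.37%).

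The non-sprouting neurons of the same animals, processed alike and by themselves, gave differences of the same sign in 86.5% of features. These share the arrays and scan dates of the sprouting values. The difference between both cell types was tested directly. limma called 0 of 28999 features at an adjusted p under 0.05 (0%), the smallest adjusted p was 0.917, and 1169 features (4.03%) had an unadjusted p under 0.05. No value below is thus particular to sprouting neurons by that test.

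Immediate early genes were the list with the highest median difference on the quantile scale. These genes encode transcription factors and synaptic proteins made in response to activity. Of 27 listed genes 26 were on the array and 23 were tested, and 17 of them were higher and 6 lower at day 21, with a median difference of 0.23, where that of all features was -0.07. At an unadjusted p under 0.05, 8 were higher against 4.28% of all features, and 3 were lower against 11.3%. In 5 all day 21 animals lay above all day 7 animals, against 0.955% of all features. The median was 0.37 without scan batch 5, where 13 had an unadjusted p under 0.05 and were higher against 6.37% of all features, and 0.42 within scan batch 3. It was 0.25 in non-sprouting neurons, and leaving out each animal in turn gave 0.14 to 0.38 in sprouting neurons. Centring on the median took the median of the list to -0.01, with the median of all features at -0.24. On that scale the 7 glutamatergic neuron markers tested had a higher median, 0.09. With 75th percentile centring theirs was 0.30, against 0.21 for immediate early genes.

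Of the 4 leading genes only Egr4 is shown by its promoter, as an example. RefSeq's table holds its start. No promoter sequence was at hand for Arc and Nr4a3, and that of Egr1 was left out. The window holds 300 bases, most of them before the start, on the minus strand at chr4:119607768-119608067 of the GRCr8 assembly, and the capitals mark the short form of the cAMP response element, TGACG or its reverse complement CGTCA, the core of the site bound by CREB, the factor through which calcium and cAMP signals reach many activity-induced genes.

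Egr4: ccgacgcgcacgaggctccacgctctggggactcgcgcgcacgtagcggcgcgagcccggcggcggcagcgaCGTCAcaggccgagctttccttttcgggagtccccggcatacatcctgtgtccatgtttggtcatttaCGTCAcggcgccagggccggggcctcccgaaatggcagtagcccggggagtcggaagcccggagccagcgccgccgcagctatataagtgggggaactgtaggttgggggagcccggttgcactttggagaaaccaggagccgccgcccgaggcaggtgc

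The matches begin 178 and 110 bases before the start. On both strands TGACG occurred in 6030 of 27457 RefSeq promoter windows of the same length (22.0%), in 2972 of 10551 that matched a tested gene (28.2%) and in 10 of 19 that matched a tested immediate early gene. The full site TGACGTCA occurred in 525 of all windows (1.91%) and in 3 of the 19, and it was not among the letters of the Egr4 window. A match describes the sequence only, and no binding was measured here.

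Arc, whose protein sits at synapses and governs the removal of AMPA receptors, had day 7 levels of 9.35, 8.74, 9.45, 9.07 and 10.04 in sprouting neurons. Its day 21 levels were 11.04, 10.79, 10.47, 10.45 and 10.79, so the groups did not overlap. The difference was 1.38 ± 0.22 (SE, n = 5 and 5), or 2.60-fold, with an adjusted p of 0.151 in limma. It was 1.44 without scan batch 5 and 1.49 within scan batch 3. Non-sprouting neurons differed by 0.85, and the difference between cell types of 0.52 had an unadjusted p of 0.0213 and an adjusted p of 0.917 in limma.

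Egr1, a zinc finger factor induced by activity and by growth signals, had day 7 levels of 11.68, 11.60, 12.23, 12.42 and 12.79. At day 21 they were 13.49, 13.29, 13.45, 13.69 and 12.91, of which the lowest lay just above the highest day 7 animal. The difference was 1.22 ± 0.23 (SE, n = 5 and 5), with an adjusted p of 0.151 in limma, and 0.89 within scan batch 3.

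Egr4, a related factor largely restricted to neurons, had tightly grouped day 7 levels of 11.32, 11.69, 11.55, 11.57 and 11.44. Its day 21 levels of 12.97, 12.11, 12.40, 12.37 and 11.94 were all higher. The single day 21 animal of scan batch 3 was the highest, and the difference of 0.84 ± 0.18 (SE, n = 5 and 5; adjusted p = 0.151 in limma) was 1.46 within that batch. Nr4a3, an orphan nuclear receptor induced by activity, lay at 11.22, 10.75, 10.87, 11.21 and 10.78 at day 7. At day 21 it lay at 12.002, 11.33, 12.15, 12.19 and 11.43, again without overlap. The difference was 0.86 ± 0.20 (SE, n = 5 and 5; adjusted p = 0.151 in limma), and a dimmer probe of Nr4a3 gave 0.40. Under median centring, with all features at -0.24, Arc differed by 0.91, Egr1 by 0.63, Egr4 by 0.26 and Nr4a3 by 0.29. Homer1, a scaffold of metabotropic glutamate receptors with a short activity-induced form, was the last gene without overlap, with 10.23 to 10.74 at day 7 and 10.87 to 11.44 at day 21. Its difference of 0.56 was 0.37 without scan batch 5 and -0.0029 when channels were centred on their medians.

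The other listed genes with an unadjusted p under 0.05 are named after their values were seen. Nr4a1, a sister receptor of Nr4a3, was 0.98 higher at day 21 (1.27 without scan batch 5) with groups that overlapped, and Egr2 was 1.34 higher (2.39 within scan batch 3), with day 7 replicate 1 at 10.41 and the other day 7 animals between 7.57 and 8.45. Nptx2, a secreted pentraxin that clusters AMPA receptors, was 0.45 higher but 0.13 higher without scan batch 5. Egr3, Per1 and Fosb went the other way, by -0.47, -0.34 and -0.33. All 3 were dim, at 8, 7 and 8 well-measured arrays of 10 at day 21 against 10 of 10 at day 7, and Egr3 and Fosb lacked day 21 replicate 4. Within scan batch 3, Egr3 was -0.27 and Per1 -0.04. The list did not move as 1 block.

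**Figure D2:**
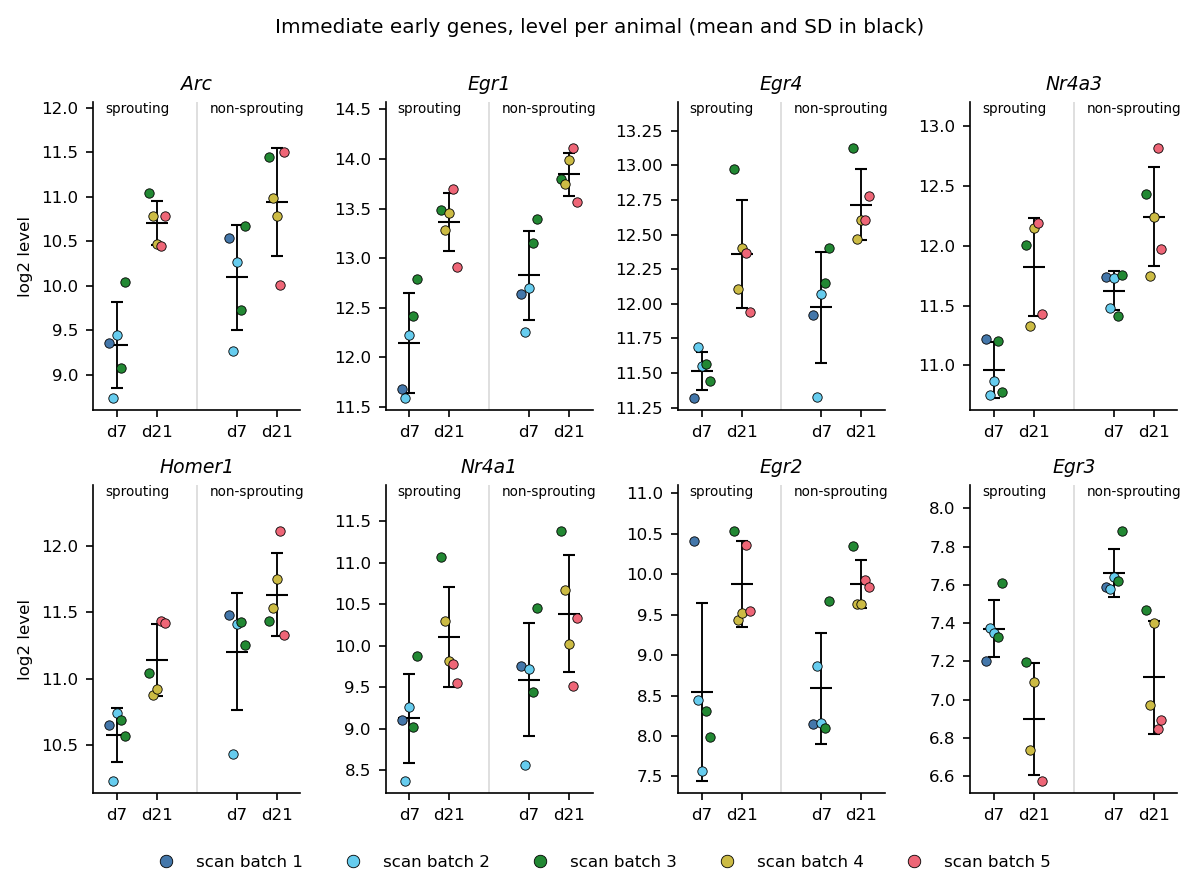
Log2 level of 8 immediate early genes in each animal, sprouting neurons on the left of each panel and non-sprouting neurons on the right, colours for scan batches, black for the mean and SD of 5 animals (4 at day 21 where an animal is missing). In sprouting neurons Arc, Egr1, Egr4, Nr4a3 and Homer1 have all day 21 animals above all day 7 animals, and Egr3 runs the other way with a difference of -0.47.

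Apart from these 4 immediate early genes, the rule for named genes picked 8 genes with higher levels at day 21 and no overlap between days. Marcksl1, a relative of the growth cone protein MARCKS that binds actin and calmodulin, had the highest difference of the 12. It lay at 10.47, 9.10, 10.61, 10.82 and 11.39 at day 7 and at 12.38, 13.20, 11.60, 13.02 and 13.21 at day 21. The difference was 2.21 ± 0.42 (SE, n = 5 and 5), or 4.62-fold, with an adjusted p of 0.151 in limma. Within scan batch 3 it was 1.28, and in non-sprouting neurons 2.18. Cited2, which competes with hypoxia-inducible factor for the coactivator CBP/p300, had 9.93 to 10.49 at day 7 and 10.82 to 11.19 at day 21, a difference of 0.81 ± 0.14 (SE, n = 5 and 5; adjusted p = 0.151 in limma). Its other probes, both dimmer, gave 0.33 and 0.54. Median centring gave 0.27 for Cited2 and 1.66 for Marcksl1.

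The splicing factor gene Hnrnph2 differed by 1.01 and Zc3h13, which takes part in RNA adenosine methylation, by 0.79. The CXCL12-scavenging receptor Ackr3 and the lysophosphatidic acid receptor Lpar1 differed by 0.42 and 0.51, the latter with 9.90 to 10.17 at day 7 and 10.45 to 10.75 at day 21. Fbxo9, a ubiquitin ligase subunit, and Nfyc, a subunit of the CCAAT-box factor NF-Y, differed by 0.50 and 0.52, with day 21 replicates 4 and 5 highest in both. Centring on the median took Lpar1 to -0.0041 and Fbxo9 to -0.06, so their direction rests on the quantile scale. The same centring took Ackr3 to 0.07, Nfyc to 0.09, Zc3h13 to 0.33 and Hnrnph2 to 0.71. A dimmer probe of Nfyc gave -0.03. Within scan batch 3 the differences were 0.64 for Hnrnph2, 0.35 for Zc3h13, 0.29 for Fbxo9 and 0.14 for Nfyc.

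**Figure D3:**
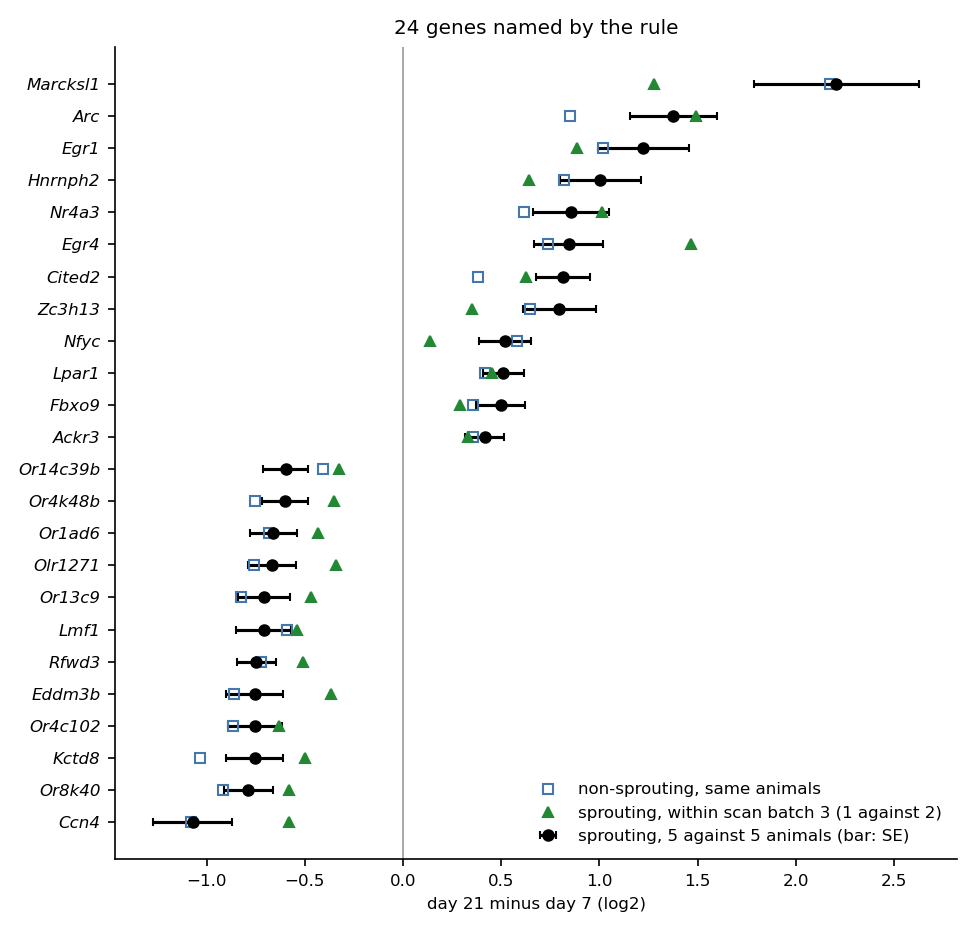
Difference between days (log2, day 21 minus day 7) for the 24 genes that the rule named, with its SE in sprouting neurons (black), the value in non-sprouting neurons (open squares) and the value within scan batch 3 (triangles). The rule asked for no overlap between days, which fixes the sign within scan batch 3 in advance. Non-sprouting values have the sign of the sprouting ones for all 24, and sprouting differences run from 2.21 for Marcksl1 to -1.07 for Ccn4.

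Genes of axon growth did not move together. Of 49 regeneration-associated genes 40 were tested, and 18 were higher and 22 lower, with a median of -0.04, where that of all features was -0.07. At an unadjusted p under 0.05, 3 were higher (background 4.28%) and 0 lower (11.3%). They were Marcksl1, Stmn2 and Vgf. Stmn2, a microtubule-destabilising protein of growth cones, had 12.52 to 13.05 at day 7 and 13.14 to 13.48 at day 21, a difference of 0.42 that turned to -0.17 under median centring. Vgf, a secreted neurotrophin-inducible peptide precursor, differed by 0.69 with overlapping groups, and by 0.08 under median centring. Dpysl2, the semaphorin signalling protein CRMP2, was bright and level, at 14.79 to 15.24 at day 7 and 15.10 to 15.26 at day 21, a difference of 0.23 that was -0.03 under median centring.

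Axon guidance genes split evenly, with 20 of 37 higher and 17 lower and a median of 0.01. The ephrin receptor Epha4 was higher by 0.49 with no overlap, at 6.60 to 6.94 against 7.05 to 7.54, and a second probe gave 0.47, while within scan batch 3 the difference was 0.19. Sema6a, a transmembrane semaphorin, differed by 0.44, and Sema7a, a membrane-anchored one that acts on integrins, by -0.44, and within scan batch 3 they were 0.18 and -0.04. Plxna4, a semaphorin receptor subunit, differed by -0.27 without overlap but was well above background on 2 of 10 day 21 arrays, and within scan batch 3 it was -0.12. Of 36 axonal transport motor genes 1 had an unadjusted p under 0.05 and was higher and 6 were lower, against 4.28% and 11.3%. Without scan batch 5, 2 were higher and 0 lower at that p, against 6.37% and 9.71% of all features. The median of the motor genes went from -0.04 to 0.04, and that of all features from -0.07 to -0.009. Of 31 neurofilament and microtubule genes 3 were higher and 1 lower at that p in all animals, against 4.28% and 11.3%. Tubb2b, a neuronal beta-tubulin, differed by 0.41, though by 0.02 within scan batch 3, by 0.25 without day 7 replicate 2, by -0.11 under median centring and by -0.03 and -0.23 on other probes. Tbcb, a tubulin-folding cofactor, differed by -0.34.

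Synaptic genes were mostly level, with a few members without overlap. Of 44 synaptic vesicle and release genes 24 were higher, with a median of 0.07, and 5 had an unadjusted p under 0.05 and were higher against 4.28%. That median was -0.27 with median centring and -0.05 with 75th percentile centring. Synj1, the phosphatase that uncoats endocytic vesicles, had 12.13 to 12.63 at day 7 and 12.68 to 12.88 at day 21, though centring on the median or the 75th percentile gave -0.26 and -0.05. Rims2, an active zone scaffold, was 0.32 higher without overlap, 0.16 within scan batch 3, and -0.05 from the scanner software's processed signal. Dnm1, the GTPase that pinches off vesicles, differed by 0.48, and by -0.03 under median centring. Sv2b, a vesicle glycoprotein, differed by 1.13 in all animals but by 0.07 within scan batch 3, and its other probes gave -0.26 and -0.15.

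Among 35 glutamate receptor genes, 5 were higher against 4.28% and 2 lower against 11.3% of all features at an unadjusted p under 0.05, with a median of 0.04. Gria1, an AMPA receptor subunit, lay at 7.59 to 8.08 at day 7 and 8.13 to 8.67 at day 21, a difference of 0.60 ± 0.14 (SE, n = 5 and 5; adjusted p = 0.151 in limma) that was 0.24 within scan batch 3. Grin1, the obligatory NMDA receptor subunit, differed by -0.70, by -0.19 within scan batch 3, and by -0.39 without scan batch 5, whose animals were the lowest at 8.55 and 8.28. So these receptor subunits ran in opposite directions, and both differences were smaller within the shared scan batch.

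Potassium channel genes had a median of -0.0015 over 41 genes, with 5 higher (4.28% of all features) and 2 lower (11.3%) at an unadjusted p under 0.05. Kcna2, an axonal channel, was 0.27 higher without overlap (6.40 to 6.69 against 6.80 to 6.93), and Kcnip1, a Kv4 partner, was 0.63 higher on 1 probe, 0.67 on another, and 0.17 within scan batch 3. Kcnh7, of the ether-a-go-go-related family, differed by -0.39 and by -0.25 without scan batch 5. Of 26 sodium and calcium channel genes 4 were higher and 2 lower at that p, against the same shares. Scn4b, a sodium channel beta subunit, differed by 0.47, within scan batch 3 by 0.49, and by -0.08 under median centring. Cacna1e and Cacna1h, R-type and T-type calcium channels, differed by -0.87 and -0.38. Cacna1e was -0.11 within scan batch 3, -0.49 without scan batch 5 and -0.04 on its other probe. Of 14 GABA receptor genes 7 were higher and 7 lower.

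Of 42 heat shock proteins and chaperones, 7 were higher (4.28%) and 0 lower (11.3%) at an unadjusted p under 0.05, and 2 did not overlap, against 0.955%, although the median was 0.03. Median centring took that median to -0.39, below the -0.24 of all features, and 75th percentile centring took it to -0.18, below -0.03, so the list lay above all features only on some scales. Hsp90ab1, the constitutive HSP90, lay at 14.07, 12.52, 13.99, 13.70 and 13.97 at day 7 and at 14.40, 14.49, 14.33, 14.35 and 14.64 at day 21. Day 7 replicate 2 was far below the rest, and without it the difference of 0.79 was 0.51. Dimmer probes gave 0.03 and 0.59. Stip1, which links HSP70 to HSP90, was 0.37 higher without overlap but 0.015 higher under median centring, and Dnajb5, an HSP40-type protein, was 0.45 higher on its brighter probe (0.68 within scan batch 3) and -0.25 on the other.

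In the cholesterol pathway 33 genes were tested, with 5 higher (4.28% of all features) and 3 lower (11.3%) at that p and a median of -0.06. Hmgcs1, which makes the precursor HMG-CoA, differed by 0.58 but by 0.07 within scan batch 3, where the day 7 animals lay at 14.02 and 13.81 and the day 21 animal at 13.99. Under median centring Hmgcs1 differed by 0.016. Insig1, a sterol sensor's partner, differed by 0.50 and by -0.04 within that batch, and by -0.10 under median centring. Sc5d, a late desaturase, differed by 0.39, by 0.17 within scan batch 3 and by -0.03 under median centring. Npc2, a lysosomal cholesterol carrier, differed by -0.90, by -0.37 within scan batch 3 and by -0.50 without scan batch 5, with day 7 replicate 1 highest at 11.21.

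Microglial and macrophage genes had the lowest median of all lists. Of 20 listed genes 20 were tested, and 18 were lower and 2 higher at day 21, with a median difference of -0.71, where that of all features was -0.07. At an unadjusted p under 0.05, 10 were lower against 11.3% of all features and 0 higher, and in 5 all day 21 animals lay below all day 7 animals, against 3.55%. Averaged over the list, levels ran from 9.20 to 11.2 at day 7 and from 8.79 to 9.15 at day 21. The highest animal was day 7 replicate 1, and the other day 7 animals lay between 9.20 and 9.37. Without it the median was -0.36, 16 were lower, and 9 had an unadjusted p under 0.05 and were lower against 10.7% of all features, and 0 were higher against 3.54%. The median was -0.57 without scan batch 5, -0.35 within scan batch 3 and -0.52 in non-sprouting neurons. In captured material fewer cells of a type and less RNA per cell cannot be told apart.

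C1qb, a chain of the complement starter C1q, had day 7 levels of 12.34, 11.33, 11.02, 10.97 and 11.09. At day 21 they were 10.50, 10.67, 10.34, 10.22 and 10.37, all lower. The difference was -0.93 ± 0.24 (SE, n = 5 and 5; adjusted p = 0.151 in limma), -0.68 without day 7 replicate 1 and -0.52 within scan batch 3. Ctss, the microglial protease cathepsin S, had narrow ranges of 13.56 to 13.96 and 13.25 to 13.55 and a difference of -0.39, and a second probe gave -0.46.

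Cd68, a lysosomal protein of phagocytes, had day 7 levels of 12.79, 10.68, 10.61, 10.79 and 10.94, and day 21 levels of 9.87, 10.23, 9.82, 9.84 and 9.61. The groups did not overlap, and the difference of -1.29 was -0.88 without day 7 replicate 1. Trem2, a lipid-sensing receptor of microglia, lay at 11.41 in day 7 replicate 1, at 9.03 to 9.49 in the other day 7 animals, and at 7.31 to 8.99 at day 21. Its difference of -1.47 was -1.03 without replicate 1, -0.94 without scan batch 5, -0.59 within scan batch 3 and -0.56 in non-sprouting neurons, and the difference between cell types had an unadjusted p of 0.0209 and an adjusted p of 0.917 in limma. Lgals3, the phagocyte lectin galectin-3, is added after its values were seen. It lay at 15.86 in day 7 replicate 1 and at 9.09 to 11.12 in the other day 7 animals, against 6.84 to 8.89 at day 21, with 2 day 7 arrays saturated, and its difference of -2.91 was -1.68 without replicate 1 and -1.72 within scan batch 3.

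**Figure D4:**
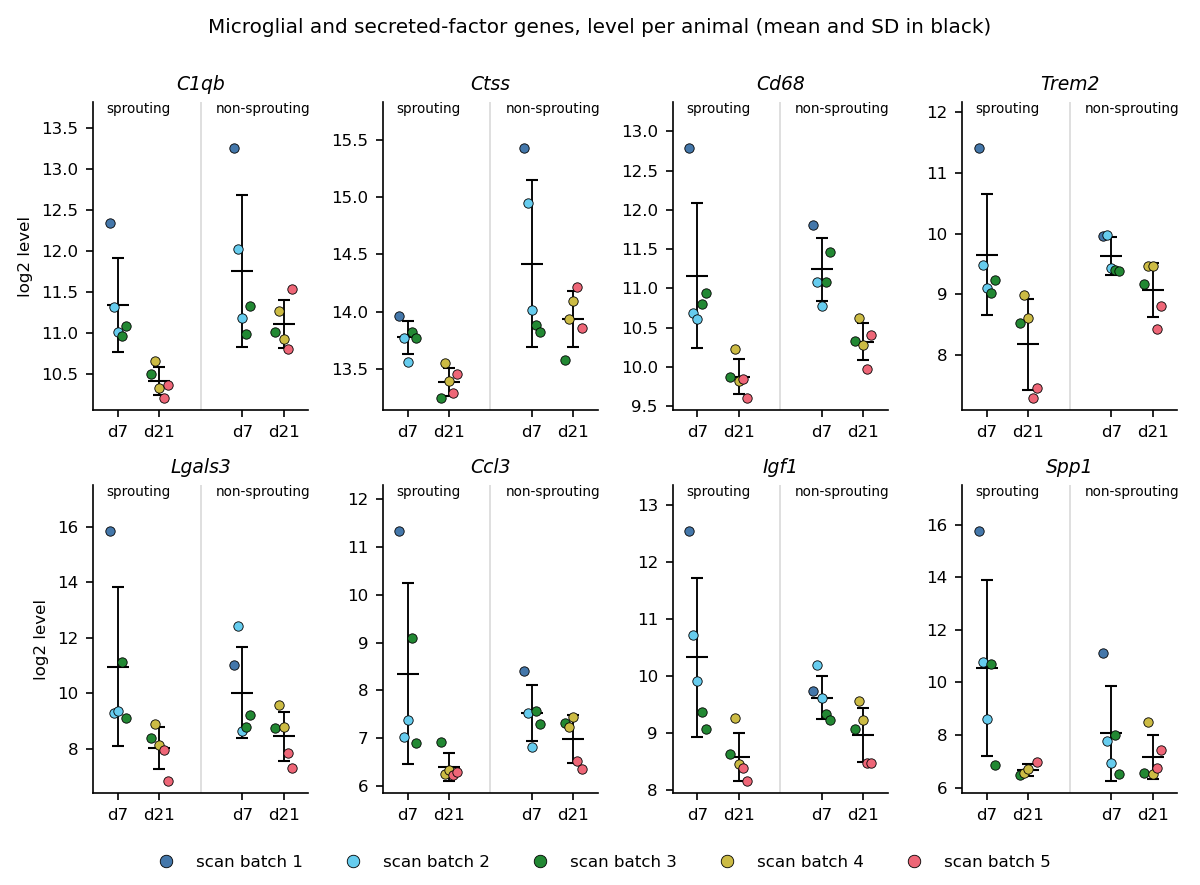
Log2 level of 8 genes of microglia, matrix and secreted factors in each animal, laid out with sprouting neurons on the left and non-sprouting neurons on the right of each panel, colours for scan batches, black for mean and SD. Day 7 replicate 1 (scan batch 1) is the highest sprouting value in all 8 panels, at 15.78 for Spp1 and 15.86 for Lgals3.

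Of 7 genes recalled from the study as candidates, 3 (Igf1, Spp1 and Gdf10) had an unadjusted p under 0.05 and were lower, against 11.3% of all features. The list was chosen with earlier results of these data known, so this count is no independent support. Igf1, the growth factor that acts through the IGF1 receptor, lay at 12.56, 10.73, 9.92, 9.38 and 9.08 at day 7 and at 8.63, 9.27, 8.47, 8.40 and 8.17 at day 21. Only the lowest day 7 animal and the highest day 21 animal overlapped. The difference was -1.75 ± 0.55 (SE, n = 5 and 5; adjusted p = 0.195 in limma), -1.19 without day 7 replicate 1 and -0.60 within scan batch 3. Dimmer Igf1 probes gave -1.002, -0.30 and -0.06. Spp1, osteopontin, spread widely at day 7, with 15.78, 10.80, 8.61, 10.72 and 6.88. It lay at 6.48, 6.54, 6.69 and 6.97 at day 21, with replicate 4 missing, and was well above background on 3 of 10 day 21 arrays and saturated on 2 day 7 arrays, so the sizes that follow are not measured on both sides. The difference of -3.89 was -2.58 without day 7 replicate 1 and -2.32 within scan batch 3, and the difference between cell types had an unadjusted p of 0.0024 and an adjusted p of 0.917 in limma. Ccl3, a macrophage chemokine and no candidate, lay at 11.34 and 9.09 in day 7 replicates 1 and 4 and at 6.89 to 7.38 in the others, against 6.22 to 6.91 at day 21, and its difference of -1.95 was -1.20 without replicate 1 and -1.08 within scan batch 3.

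Of the other recalled candidates, Gdf10, a growth factor of the TGF-beta family, differed by -0.70, by -0.28 without scan batch 5 and by -0.27 within scan batch 3. Lmo4, a LIM-only transcriptional cofactor, differed by -0.43, by -0.10 without scan batch 5 and by -0.04 within scan batch 3. Efna5, an ephrin that repels growing axons, was dim and level, at 6.22 to 6.64 at day 7 and 6.203 to 7.11 at day 21, with a difference of 0.08 that is -0.01 on dye-swap arrays alone and -0.08 within scan batch 3. Lingo1, a subunit of the myelin inhibitor receptor, differed by 0.21 in sprouting and by 0.55 in non-sprouting neurons. Atrx, a chromatin remodeller, had a difference of -0.03 ± 0.54 (SE, n = 5 and 5; adjusted p = 0.984 in limma) with day 7 replicate 2 at 8.005 and the other day 7 animals between 10.71 and 11.40. Without that animal it was -0.63, and within scan batch 3 it was -0.95. Non-sprouting neurons gave 0.87, and the difference between cell types of -0.89 had an unadjusted p of 5.07e-05 and an adjusted p of 0.917 in limma. Other probes of Atrx gave 0.74 and 0.58 in sprouting neurons.

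Of 41 extracellular matrix and protease genes 35 were lower, with a median of -0.24, 9 with an unadjusted p under 0.05 against 11.3% and 4 without overlap against 3.55%. The median was -0.30 without scan batch 5, -0.05 within scan batch 3 and -0.11 without day 7 replicate 1, whose mean over the list was 10.2 against 8.499 to 8.83 in the other day 7 animals. Sparc, a matricellular protein of glia and vessels, lay at 11.93, 11.49, 11.12, 10.56 and 11.11 at day 7 and at 10.39, 10.39, 10.53, 10.07 and 10.65 at day 21, overlapping by 1 animal, with a difference of -0.84 ± 0.22 (SE, n = 5 and 5; adjusted p = 0.151 in limma). Mmp2, a gelatinase, differed by -0.78 without overlap, by -0.47 without scan batch 5 and by -0.38 within scan batch 3, where Sparc was -0.44. Of 40 chemokine, cytokine and acute phase genes 29 were lower, with a median of -0.19 and 5 lower at an unadjusted p under 0.05 against 11.3% of all features, which is near that share. Without day 7 replicate 1 that median was -0.10. Of 34 apoptosis and p53 target genes 6 were higher (40.1% of all features) and 28 lower, with a median of -0.24, which was 0.02 without scan batch 5.

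**Figure D5:**
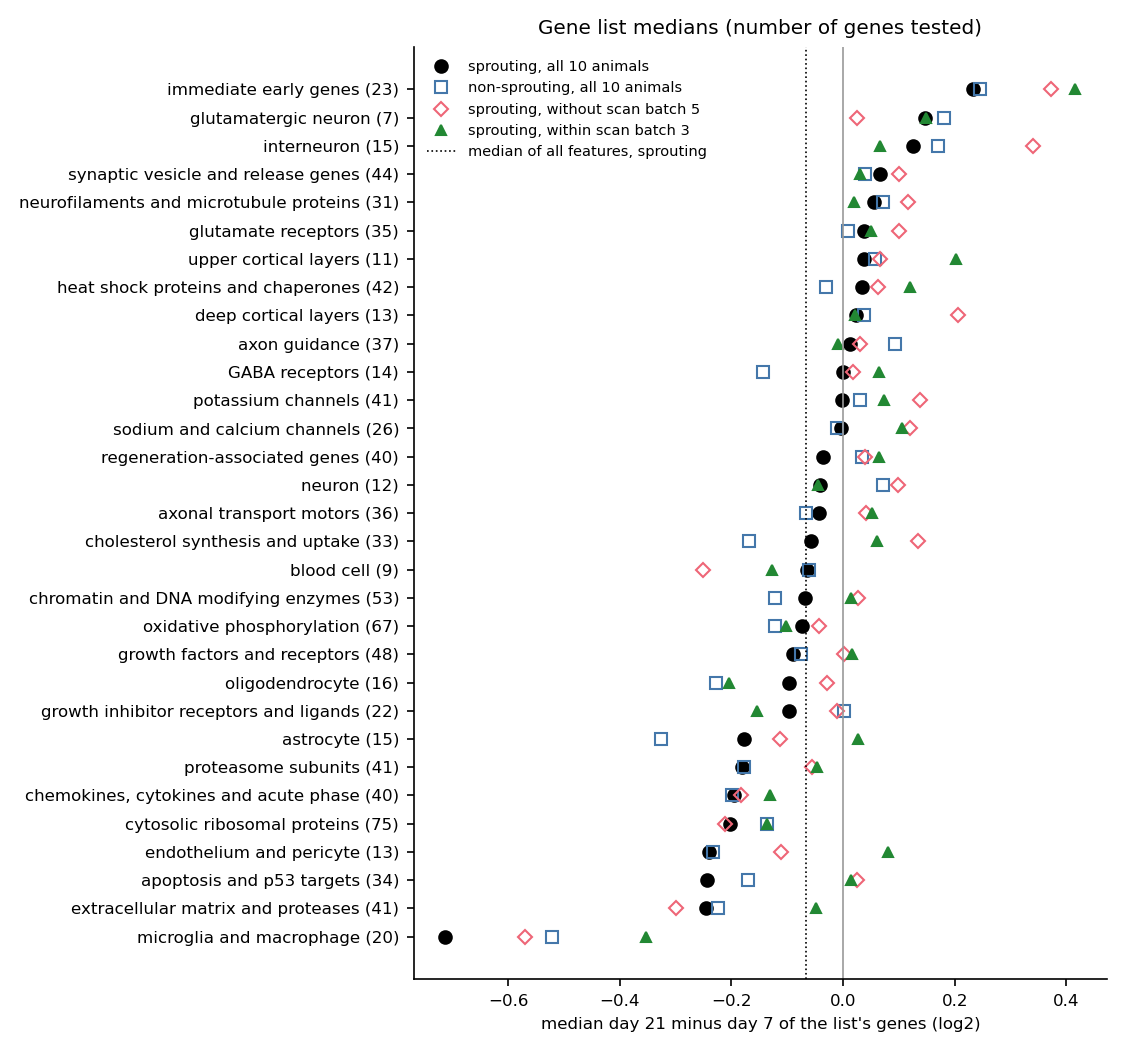
Median difference between days (log2) over the tested genes of each list, with the number tested, in sprouting neurons (filled circles), non-sprouting neurons (squares), sprouting neurons without scan batch 5 (diamonds) and within scan batch 3 (triangles). Immediate early genes are highest at 0.23 and microglial genes lowest at -0.71, and the lists between them mostly lie within 0.25 of 0.

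Of 75 cytosolic ribosomal protein genes 62 were lower, with a median of -0.20, 16 with an unadjusted p under 0.05 against 11.3% and 9 without overlap against 3.55%. The median was -0.21 without scan batch 5, -0.14 within scan batch 3, -0.09 without day 7 replicate 1 and -0.14 in non-sprouting neurons. It was -0.72 with median centring (all features -0.24) and -0.51 with 75th percentile centring (all features -0.03), so its size depends on the scale. Rpl10a lay at 10.86 to 11.54 at day 7 and 10.41 to 10.79 at day 21, a difference of -0.56 ± 0.14 (SE, n = 5 and 5; adjusted p = 0.151 in limma). Fau, the fusion gene of a ubiquitin-like protein and a small-subunit protein, and Rps29 differed by -0.46 and -0.53 without overlap, and a second Fau probe gave -0.46. Rplp0 of the ribosomal stalk differed by -1.09, with day 21 replicates 4 and 5 at 7.25 and 6.98 and the others at 8.13 to 8.51, and by -0.60 without scan batch 5. Within scan batch 3 the differences were -0.29 for Rpl10a, -0.26 for Fau, -0.31 for Rps29 and -0.26 for Rplp0.

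Of 41 proteasome subunit genes 34 were lower with a median of -0.18, which was -0.06 without scan batch 5, -0.05 within scan batch 3, -0.69 with median centring and -0.44 with 75th percentile centring. Psmd1 and Psmd8, subunits of the regulatory particle, differed by -0.31 and -0.58 without overlap, and Psmd8 by -0.27 without scan batch 5 and -0.15 within scan batch 3. Of 67 oxidative phosphorylation genes 22 were higher (40.1% of all features) and 45 lower, with a median of -0.07, beside -0.07 for all features. With median centring it was -0.62 beside -0.24, and with 75th percentile centring -0.41 beside -0.03. The complex I genes Ndufv3 and Ndufb8 differed by -0.65 and -0.32 without overlap, and within scan batch 3 by -0.28 and -0.15. Of 53 chromatin and DNA modifying enzyme genes 20 were higher and 33 lower, with a median of -0.07. That is near the share of all features, of which 40.1% were higher. Smarcb1 and Smarcc2, core subunits of the BAF remodelling complex, differed by -0.51 and -0.57, the first without overlap, and within scan batch 3 by -0.39 and -0.41.

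The rule also named 12 genes with lower levels at day 21, by smallest p among those without overlap. Of them 7, Or8k40, Or1ad6, Or4c102, Olr1271, Or13c9, Or14c39b and Or4k48b, are olfactory receptor genes, which encode odorant receptors of the nose. Or8k40 lay at 8.06, 8.02, 8.01, 8.05 and 8.32 at day 7 and at 7.60, 7.14, 7.38, 7.31 and 7.09 at day 21, a difference of -0.79 ± 0.12 (SE, n = 5 and 5; adjusted p = 0.151 in limma). The other 6 differed by -0.60 to -0.76 and, within scan batch 3, by -0.33 to -0.63. Rfwd3, a ubiquitin ligase of DNA repair, had 7.28 to 7.38 at day 7 and 6.44 to 6.77 at day 21, a difference of -0.75 on this probe and -0.11 on a dimmer one. Ccn4, a secreted Wnt target, differed by -1.07, the lipase maturation factor gene Lmf1 by -0.71, the GABA-B receptor partner Kctd8 by -0.76 and Eddm3b by -0.76. Within scan batch 3, Ccn4 was -0.58, Kctd8 -0.50 and Eddm3b -0.37. All 12 lay between 7.26 and 9.80 on average at day 7, were well above background on 10 of 10 day 7 arrays by the rule, and on 6 to 9 of 10 at day 21.

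The olfactory receptor family was counted after these values were seen. Of 892 tested members 679 (76.1%) were lower at day 21, and 35.7% were lower with an unadjusted p under 0.05 against 11.3% of all features. Their median level was 7.00, and they were well above background on 96.1% of day 7 and 68.5% of day 21 arrays. A member could pass the filter by its detection at day 7 alone, so these counts are no independent support for lower levels at day 21. Of all features 40.1% were higher. With all features split by level into 5 equal groups, the group that holds the family's median level, from 6.69 to 7.04, was well above background on 94.9% of day 7 and 69.6% of day 21 arrays, and 51.6% of it was lower, 11.9% at an unadjusted p under 0.05. The group from 7.64 to 9.16 was lower in 71.5% of cases, and the brightest in 52.6%.

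Markers of other cells and of neuron types complete the picture. Averaged over the list, 15 astrocyte markers ran from 9.60 to 10.1 at day 7 and from 9.31 to 9.65 at day 21, with 11 lower and a median of -0.18 that was 0.03 within scan batch 3. Vim, the intermediate filament of reactive glia, lay at 10.83 and 8.98 in day 7 replicates 1 and 2 and at 7.30 to 7.80 in the others, against 6.49 to 7.98. Its difference of -1.43 was -0.85 without replicate 1 and -0.34 within scan batch 3. Sox9, an astrocyte transcription factor, differed by -0.54, by -0.20 without scan batch 5 and by -0.19 within scan batch 3. Of 16 oligodendrocyte markers 5 were higher (40.1% of all features) and 11 lower, with a median of -0.10. Of 13 endothelial and pericyte markers 11 were lower with a median of -0.24, which was -0.11 without scan batch 5 and 0.08 within scan batch 3, where 8 were higher. The angiopoietin receptor Tek lay at 7.05 to 7.57 at day 7 and 7.504 to 8.40 at day 21, a difference of 0.73 ± 0.16 (SE, n = 5 and 5; adjusted p = 0.151 in limma) and 0.56 within scan batch 3. Of 9 blood cell markers 3 were higher and 6 lower with a median of -0.06. The haemoglobin gene Hbb-b1, saturated on 4 day 7 arrays, differed by -1.33 and by -2.12 within scan batch 3. The part of these cells in the results above was not tested.

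General neuron markers had a median of -0.04 over 12 genes, and averaged over the list they ran from 10.2 to 10.7 at day 7 and from 10.3 to 10.7 at day 21. Of 15 interneuron markers 13 were higher, with a median of 0.13. Without day 7 replicate 1, 9 were higher with a median of 0.055, and within scan batch 3, 8 were higher with a median of 0.067. Without scan batch 5, 14 were higher with a median of 0.34, where that of all features was -0.009. Median centring gave -0.20, with all features at -0.24. Pvalb, the calcium buffer of fast-spiking interneurons, lay at 11.62 to 12.68 at day 7 and 12.51 to 13.08 at day 21. Its difference of 0.60 was 0.68 within scan batch 3 and 0.0045 under median centring. Dlx1, an interneuron transcription factor, differed by -0.61 without overlap, by -0.35 without scan batch 5 and by -0.20 within scan batch 3. Upper-layer and deep-layer markers had medians of 0.04 and 0.02. Within scan batch 3 these were 0.20 and 0.02, and without scan batch 5 they were 0.07 and 0.21. Fezf2, which specifies subcerebral projection neurons, differed by 0.52 but by 0.03 within scan batch 3 and by 0.0026 under median centring. Ntsr1, a layer 6 marker, differed by -0.43 (-0.25 within scan batch 3) while well above background on 4 of 10 day 21 arrays.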

How the data were processed

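Members and gene lists were chosen with earlier results of these data known. The authors deposited scanner intensity values for each spot and channel, with flags for outlier, saturated and well above background spots, written by Agilent Feature Extraction 9.1.3.1 per the file headers; no genome build was found in the labels or headers. The 40 columns of a series table were not used.

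Mean and background intensities of 43628 spots per array (2256 controls left out) were corrected by normexp (offset 50), put on the log2 scale and quantile normalized within dye. Outlier spots were set to missing, spots of a probe averaged, and both dyes of an animal averaged. A probe needed to be well above background on both arrays of 3 animals of 1 day (31881 of 41012 probes), and the brightest probe stood for a gene. Names come from RefSeq (GRCr8) by accession, symbol or synonym.

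Days were compared with limma 3.58.1 in R 4.3.3 (lmFit, eBayes, two-sided, Benjamini-Hochberg), 5 animals against 5. Named genes were those with no overlap between days and good detection, 12 per direction, filled by smallest p as none passed, up to 4 per list, and the recalled candidates. On simulated data with 25531 features, limma recovered 16% of features changed by 0.5 on the log2 scale, 68% at 1, 94% at 2 and 100% at 4. The simulated noise was normal, independent between features and without a scan batch difference, and 50 features were changed per size. These rates therefore do not give the power of the real, confounded design. Replicate numbers do not pair the animals: correlations of deviations between same-numbered animals ran from -0.13 to 0.18. Alternatives covered background correction, scaling, filters, dyes, arrays singly, scan batch and leaving out each animal.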

Additional observations from a re-analysis of the deposited data

Results flagged for a closer look

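In groups of 5 animals, 16 of 183 groups of named genes (8.74%) had 1 animal far from the other 4, where chance gives about 1 in 20. Day 7 replicate 1 was the outlying animal in 6 of them and day 7 replicate 2 in 5.

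Day 7 replicate 1 was highest for Npc2 at 11.21, C1qb at 12.34, Cd68 at 12.79, Trem2 at 11.41 and Mmp2 at 8.91, and lowest for Kctd8 at 7.52. Day 7 replicate 2 was lowest for Synj1 at 12.13, Sv2b at 12.03, Hsp90ab1 at 12.52 and Atrx at 8.005, and highest for Rfwd3 at 7.38. Day 7 replicate 5 was highest for Or8k40 at 8.32 and Tek at 7.57. At day 21, replicate 1 was highest for Ccl3 at 6.91, replicate 2 was highest for Lpar1 at 10.75 and replicate 4 was lowest for Lmf1 at 8.65.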

How the results depend on the processing

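The count at an adjusted p under 0.05 was 0 in limma apart from 6 with 75th percentile centring, 122 with the 20 arrays entered singly and a range of 0 to 411 when each animal was left out, 411 being without day 21 replicate 1. For the difference between cell types it was 0 apart from 1 with arrays singly. Counts at an unadjusted p under 0.05 were 4520 and, for the difference between cell types, 1169. They were 2559 and 418 with 75th percentile centring, 927 and 136 when probes had to be well above background on all arrays (6153 features tested), and 523 and 328 with scan batch as a fixed block. The first was 1051 within scan batch 3 and 2426 with scan batch as a random block. The second was 515 with median centring and 2121 on dye-swap arrays alone. Leaving out each animal gave 3409 to 5698 and 892 to 1632. A fit with the replicate number as a block gave 0 calls, with 3923 and 983 features at an unadjusted p under 0.05, and no animal correlated best with its own number.

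Directions turned for few named genes, and the cause was not tested. Median centring gave Lpar1 -0.0041, Fbxo9 -0.061, Stmn2 -0.17, Dpysl2 -0.033, Tubb2b -0.11, Dnm1 -0.034, Synj1 -0.26, Homer1 -0.0029, Scn4b -0.081, Sc5d -0.026 and Insig1 -0.097. It kept the direction of others but left them small, among them Fezf2 at 0.0026, Pvalb at 0.0045, Stip1 at 0.015, Hmgcs1 at 0.016, Ackr3 at 0.071 and Vgf at 0.079. Centring on the 75th percentile gave Synj1 -0.050. The scanner software's processed signal gave Rims2 -0.050 and Atrx 0.038. Forward arrays alone gave Atrx 0.066 and dye-swap arrays alone Efna5 -0.0051. With scan batch as a fixed block and within scan batch 3, Insig1 was -0.038 and Efna5 -0.075. Leaving out each animal gave -0.63 to 0.22 for Atrx, and -0.058 to 0.17 for Efna5. For Arc the adjusted p in limma ran from 0.017 to 1.0 over all alternatives.

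Signal over background limits the dimmer genes, chiefly on the dye-swap arrays of day 21 replicates 2, 3 and 4, and 2657 features lacked day 21 replicate 4. Genes named in the text had 52 further probes, and 35 of these gave the same direction. The alternative without scan batch 5 was chosen after seeing the data.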
